A study of Mus musculus with 6 samples.

Results

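The HOX cluster genes were the 39 protein-coding genes of GENCODE M21 whose symbol is *Hoxa*, *Hoxb*, *Hoxc* or *Hoxd* followed by a number, out of 21911 protein-coding genes. They were taken by symbol alone, whatever their binding. FOXC2 binding was measured by ChIP-seq in podocytes sorted by FACS from mice with the mTmG reporter, in which podocyte membranes are green and those of other cells red. The ADR group had received adriamycin (ADR), a podocyte toxin, at 18 mg/kg on days 0 and 7, the PBS group had received PBS, and both were collected on day 9, with 3 samples each. All mice carried the reporter, were littermates of mixed background per the study's methods, and their age is not given in the sources used here.

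HOX genes encode homeodomain TFs that give cells their position along the body axis. They lie side by side in 4 clusters, and within a cluster all are transcribed the same way, from the high paralog numbers at one end to the low numbers at the other. Members with the same number in different clusters are paralogs, and paralogs 10 and 11 act together in the early kidney.

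The authors deposited 1 pooled peak list per condition, of 41075 peaks in PBS and 40067 in ADR. The peak names in both lists carry the label of a single replicate, R1, while the study's methods describe pooling of all replicates, and the lists are taken as pooled here. The fold of a peak is the caller's ratio of ChIP signal to the local control at the summit. Because the samples were pooled, the spread between replicates is unknown and no difference between PBS and ADR was tested. The 95% Wilson intervals of shares cover counting error only, and neighboring peaks are not independent. The read depth behind the lists is unknown. Folds recurred at even steps, of 0.258 for PBS and 0.137 for ADR. The 4 podocyte markers examined had peaks within 10 kb of their start in both lists, with 3 PBS and 3 ADR peaks at *Nphs1*, 3 and 7 at *Podxl*, 1 and 5 at *Tcf21* and 3 and 1 at *Synpo*. No peak of either list lay near *Umod*, *Aqp2*, *Pecam1*, *Ptprc* or *Cd3e*, which mark other kidney cells, while *Slc34a1*, a proximal tubule gene, had 0 PBS and 3 ADR peaks, *Lrp2* 1 and 2, and *Kdr*, an endothelial gene, 3 and 1.

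Peaks were assigned to every HOX gene whose annotated record on GRCm38 starts less than 10 kb away, and record start below means that base. The HoxA cluster has 11 members at chr6:52155590-52260880, HoxB 10 at chr11:96194316-96368256, HoxC 9 at chr15:102921103-103036852 and HoxD 9 at chr2:74668310-74765142. Windows of neighbors overlap, so the members' counts add up to 197 PBS and 147 ADR peaks, which are 93 and 71 different peaks. Long transcripts place the record start of *Hoxa3* beside *Hoxa6*, that of *Hoxc5* beside *Hoxc10* and that of *Hoxd3* beside *Hoxd4*, and these genes take the peaks found there. Counts of several members depend on the start used, and those below are from record starts. With the start of principal transcripts, for example, *Hoxc6* had 4 PBS and 5 ADR peaks, *Hoxc5* 3 and 3 and *Hoxb3* 7 and 6. *Hoxd11* then had 4 and 3 and *Hoxc4* 0 and 1.

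The DNA under the summits on which the results turn is shown first, read from the forward strand of GRCm38. Each line is a window of 101 bp centered on a summit of the site, narrower than the windows in which motifs were counted, and capitals mark matches to motifs of podocyte TFs or HOX proteins, spelled out with the motif counts. These 4 are the sites with the highest fold in each cluster among those within 10 kb of a record start. *Hoxa2* specifies hindbrain segments and pharyngeal arches, *Hoxb4* is known from blood stem cells, *Hoxc6* from the thoracic region and *Hoxd4* from the neck vertebrae.
Hoxa2 promoter, chr6:52165097-52165197: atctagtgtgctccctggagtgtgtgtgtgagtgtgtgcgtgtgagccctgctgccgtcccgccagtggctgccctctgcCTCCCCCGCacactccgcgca
Hoxc6 intron, chr15:102999379-102999479: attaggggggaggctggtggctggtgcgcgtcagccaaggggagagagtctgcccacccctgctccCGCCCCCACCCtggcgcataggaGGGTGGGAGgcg
Hoxd4 intron, chr2:74715941-74716041: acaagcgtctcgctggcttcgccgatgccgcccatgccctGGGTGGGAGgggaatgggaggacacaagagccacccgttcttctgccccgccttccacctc
Hoxb4 intron, chr11:96319412-96319512: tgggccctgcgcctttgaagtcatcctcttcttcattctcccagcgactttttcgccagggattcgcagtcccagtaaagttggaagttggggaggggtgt
The *Hoxa2*, *Hoxc6* and *Hoxd4* windows held WT1 matches, and a forkhead match lay within 100 bp of the *Hoxa2* summit in both lists. The *Hoxb4* window held no match, although WT1, KLF and posterior HOX matches lay within 100 bp of its summit. The next 6 are, within 10 kb of a record start, the strongest ADR-only peak, the strongest PBS-only peaks of HoxD and HoxB, and the sites with the largest and smallest log2 fold difference, and then a site farther than 10 kb from any record start, whose fold differed most in all 4 clusters.
Hoxc6 promoter, ADR only, chr15:102998015-102998115: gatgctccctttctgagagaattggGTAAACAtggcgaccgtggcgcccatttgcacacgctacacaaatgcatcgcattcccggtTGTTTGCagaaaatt
Hoxd11 gene body, PBS only, chr2:74681764-74681864: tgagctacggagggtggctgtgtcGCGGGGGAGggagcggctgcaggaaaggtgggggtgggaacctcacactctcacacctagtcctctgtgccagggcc
Hoxb2 upstream, PBS only, chr11:96341282-96341382: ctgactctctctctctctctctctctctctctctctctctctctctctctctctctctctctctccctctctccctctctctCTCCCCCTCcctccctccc
Hoxc6 distal intron, largest difference, chr15:103005548-103005648: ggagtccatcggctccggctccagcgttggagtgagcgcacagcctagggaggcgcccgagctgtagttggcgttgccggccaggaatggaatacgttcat
Hoxd10 upstream, smallest difference, chr2:74690062-74690162: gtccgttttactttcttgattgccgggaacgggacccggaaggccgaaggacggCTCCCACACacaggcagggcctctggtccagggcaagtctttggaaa
Hoxd3 downstream, beyond 10 kb, chr2:74748657-74748757: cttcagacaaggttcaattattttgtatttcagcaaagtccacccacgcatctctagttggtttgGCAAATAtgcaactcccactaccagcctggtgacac
The *Hoxc6* promoter window held 2 forkhead matches, and the window downstream of *Hoxd3* held 1. A CT repeat filled most of the *Hoxb2* window, and the window in the *Hoxc6* intron held no match, although a forkhead match lay within 100 bp of the summit in both lists and a KLF match in ADR.

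FOXC2 peaks lay within 10 kb of 38 of the 39 HOX genes. In the PBS list 36 members had at least 1 peak, beside 58.8% of all protein-coding genes. In ADR 34 had at least 1, beside 55.9%. The median HOX gene had 5 PBS and 4 ADR peaks, and the median protein-coding gene had 1 in each. At least 5 PBS peaks were found at 24 members, and 3.09% of all protein-coding genes had as many. Counted once, HOX windows held 20.97 PBS peaks and 16.01 ADR peaks per 100 kb. The windows of all protein-coding genes held 5.21 and 4.71 per 100 kb.

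HOX peaks were of middling height. The median HOX peak had a fold of 6.12 in PBS and 6.78 in ADR, and the medians of the whole lists were 6.53 and 7.42. Folds of 20 or more were found at 4 of 93 HOX peaks in PBS and 5 of 71 in ADR. The whole lists had them at 3096 of 41075 peaks in PBS and 4492 of 40067 in ADR. Of the HOX summits, 31.2% in PBS (22.7 to 41.2%) and 35.2% in ADR (25.1 to 46.8%) lay at a promoter, taken as 1 kb upstream to 100 bp downstream of a coding transcript's start. The shares over the whole lists were 28.8% and 26.9%, and those over peaks within 10 kb of any coding gene were 56.2% and 56.6%. Summits in exons made up 20.4% of HOX peaks in PBS (13.5 to 29.7%) and 16.9% in ADR (9.94 to 27.3%), beside 5.24% and 5.02% of the whole lists.

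HoxA held the most peaks, with 34 in PBS and 28 in ADR. HoxB followed in PBS with 24 but had 14 in ADR. HoxC had 20 and 18, and HoxD 15 and 11. Each cluster thus had fewer ADR than PBS peaks, and HoxB accounted for 10 of the 22 fewer. The whole lists differed by a smaller proportion, 40067 against 41075.

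**Figure D1:**
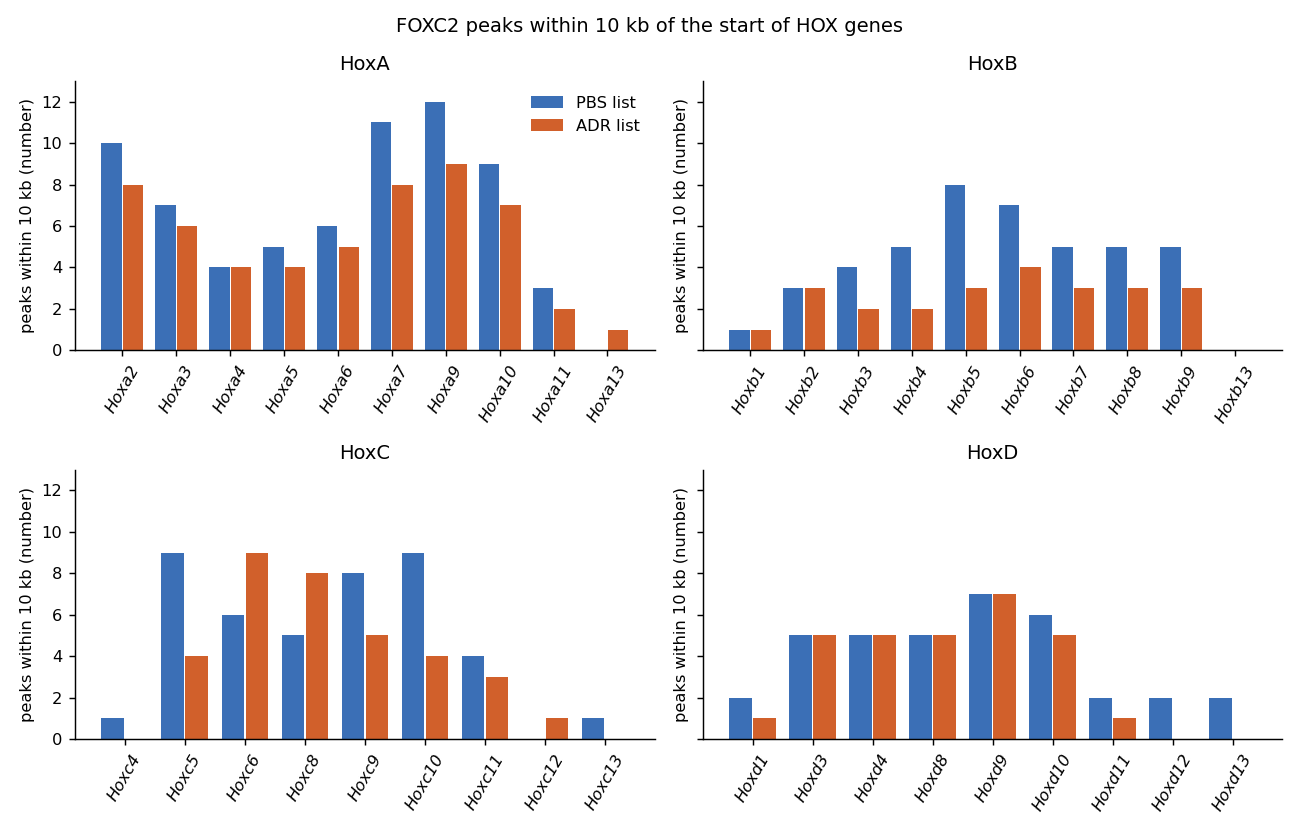
FOXC2 peaks per HOX gene (number within 10 kb of the record start) by cluster, with blue bars for PBS and orange bars for ADR and 1 HoxA member left out. HoxB members have as many or fewer ADR peaks, *Hoxc6* and *Hoxc8* have 3 more, and the genes numbered 12 and 13 have 0 to 2 in either list.

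In HoxA, *Hoxa9*, a gene of blood progenitors, had the most peaks of any member, 12 in PBS and 9 in ADR. *Hoxa7* had 11 and 8 and *Hoxa2* had 10 and 8. *Hoxa10* had 9 and 7. Of the other anterior members, *Hoxa3* had 7 and 6, and 1 member is not reported here. *Hoxa6* had 6 and 5, and *Hoxa5*, a gene of lung development, had 5 and 4. *Hoxa4* had equal numbers, 4 in each. *Hoxa11* had 3 and 2, and *Hoxa13*, a gene of digits and the genital tract, had 0 and 1.

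In HoxB, *Hoxb5* had the most PBS peaks with 8, and 3 in ADR. *Hoxb6* had 7 and 4. *Hoxb4* had 5 and 2, and *Hoxb7*, *Hoxb8* and *Hoxb9* had 5 and 3 each. *Hoxb3* had 4 and 2, *Hoxb2* had 3 in each list and *Hoxb1* 1 in each. *Hoxb13*, known for its role in the prostate, had no peak in either list. It lies apart from the other members, and the nearest summit was 60249 bp away in PBS and 75810 bp away in ADR.

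In HoxC the members differed in both directions. From record starts, *Hoxc6* had 6 PBS and 9 ADR peaks, and *Hoxc8*, 1 of the 48 podocyte genes listed by the study, had 5 and 8. With principal starts *Hoxc6* had 4 and 5, and *Hoxc8* again had 5 and 8. *Hoxc10* and *Hoxc5*, whose records start side by side, shared their 9 PBS and 4 ADR peaks. *Hoxc9* had 8 and 5, and *Hoxc11* 4 and 3. *Hoxc4* had 1 and 0, *Hoxc12* 0 and 1, and *Hoxc13*, a gene of hair and nails, 1 and 0.

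In HoxD, *Hoxd9* had the most, 7 in each list. *Hoxd3*, *Hoxd4* and *Hoxd8* had 5 in each. *Hoxd10* had 6 and 5, *Hoxd11* 2 and 1, and *Hoxd1* 2 and 1. *Hoxd12* and *Hoxd13*, which pattern the distal limb, had 2 PBS peaks each and 0 in ADR.

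Of the members, 27 HOX genes had fewer ADR than PBS peaks, 4 had more and 8 had equal numbers. Of the 13479 coding genes near at least 1 peak, 30.3% had fewer and 17.6% had more. Genes with many peaks are less often tied, so the same count was made for genes with at least 4 peaks in either list. There, 20 of 27 members had fewer and 2 had more, beside 51.7% and 29.5% of 1774 coding genes. Windows that share peaks make the members' counts move together, and this difference has no test. Of the 32 members with peaks in both lists, 22 had a higher mean log2 fold in ADR, beside 51.1% of 11641 coding genes. These means cover called peaks only, and a peak called in 1 list only enters the mean of that list alone. What such peaks add to the difference was not tested.

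The paralog groups were alike in the direction of the counts. Anterior members, numbered 1 to 3, had 32 different peaks in PBS and 26 in ADR. Central members, numbered 4 to 8, had 56 and 42. Posterior members, numbered 9 to 13, had 42 and 30. The 6 genes numbered 12 and 13 had 4 PBS and 2 ADR peaks in all, none of them called in both lists, and these had folds of 3.05 to 8.07. Their windows held 3.91 and 1.95 peaks per 100 kb, below the density over all coding windows.

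**Figure D2:**
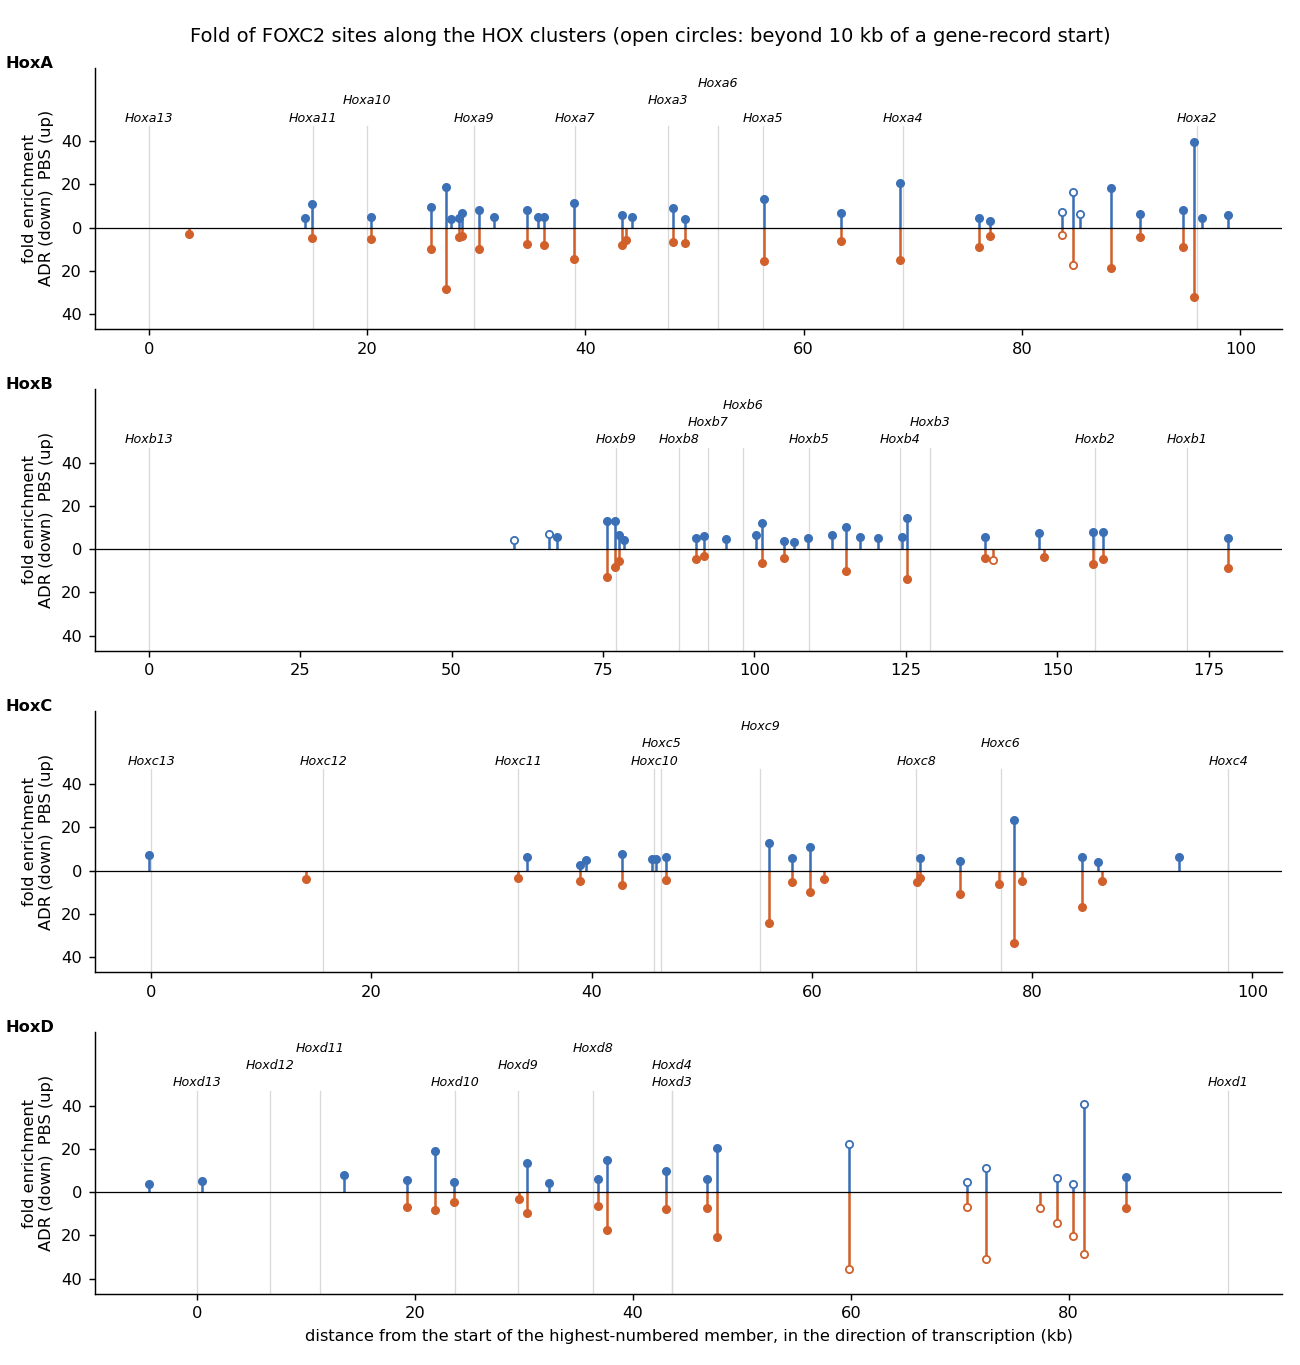
Fold enrichment of each FOXC2 site against its distance in kb from the start of the highest-numbered member, along the direction of transcription, with PBS folds drawn upward and ADR folds downward. Sites nearest to 1 HoxA member are left out. Vertical gray lines mark record starts, filled circles are sites within 10 kb of one and open circles lie farther away. The highest bars are at *Hoxa2* (39.6 in PBS) and, beyond 10 kb, between *Hoxd4* and *Hoxd1* (40.9 in PBS), and the *Hoxb13* end of HoxB is empty.

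Merging overlapping peaks gave 100 HOX sites within 10 kb of a record start, of which 58 were called in both lists, 30 in PBS only and 12 in ADR only. Of the 93 PBS peaks, 32.3% were called only in PBS (23.6 to 42.3%), beside 33.1% of all PBS peaks and 25.2% of PBS peaks near coding genes. Of the 71 ADR peaks, 16.9% were called only in ADR (9.94 to 27.3%), beside 32.3% of all ADR peaks and 18.4% of ADR peaks near coding genes. The HOX share of ADR-only peaks was therefore below that of the list and close to that of gene windows. Weighting the whole lists to the folds of the HOX peaks gave 35.1% for PBS and 35.0% for ADR.

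**Figure D3:**
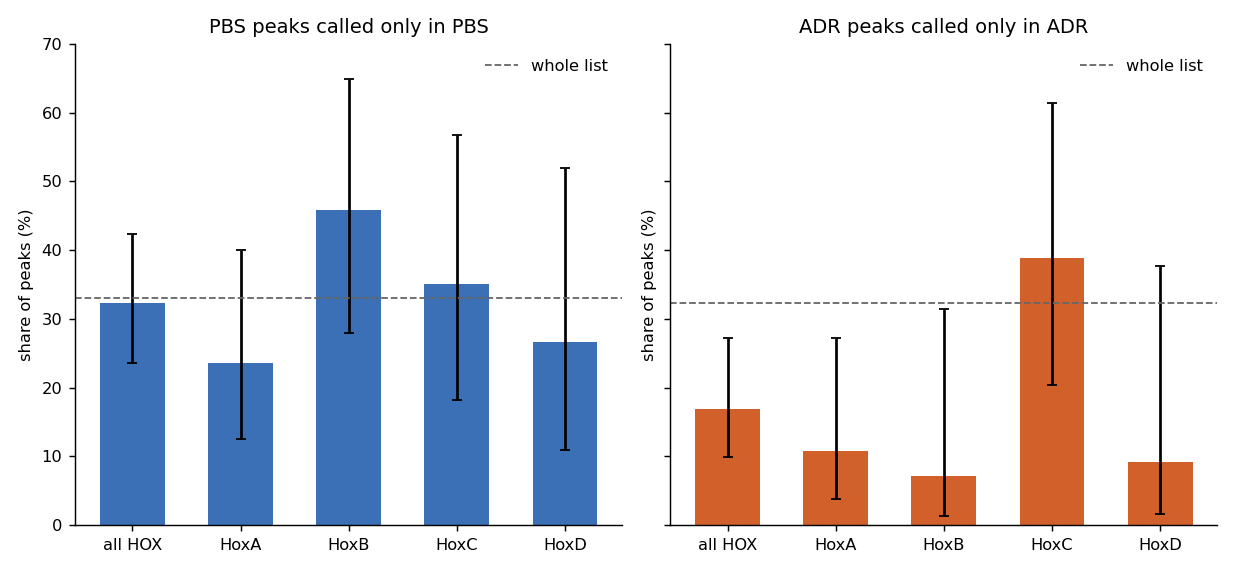
Share of HOX peaks called in 1 list only, in percent, for all HOX windows and for each cluster, with bars for the share, whiskers for the 95% Wilson interval and a dashed line for the whole list. HoxB has the highest PBS-only share (45.8%) and HoxC the highest ADR-only share (38.9%), with whiskers that overlap those of the other clusters.

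By cluster, the PBS-only share was 45.8% in HoxB (27.9 to 64.9%), 35.0% in HoxC (18.1 to 56.7%), 26.7% in HoxD (10.9 to 52.0%) and 23.5% in HoxA (12.4 to 40.0%). The ADR-only share was 38.9% in HoxC (20.3 to 61.4%), 10.7% in HoxA (3.71 to 27.2%), 9.09% in HoxD (1.62 to 37.7%) and 7.14% in HoxB (1.27 to 31.5%). The intervals of the clusters overlap, and differences between clusters were not tested. HoxC held 7 of the 12 ADR-only peaks and HoxB 11 of the 30 PBS-only peaks.

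Sites called in 1 list were weak. Within 10 kb, PBS-only sites had folds of 3.17 to 8.07 with a median of 5.13, and ADR-only sites 2.96 to 6.13 with a median of 4.11. Sites called in both lists had a median of 7.59 in PBS and 7.73 in ADR. The whole lists were alike in this, with medians of 4.98 in PBS and 5.96 in ADR for peaks called in 1 list. Peaks called in both had 7.88 and 8.70. Within 10 kb of a record start, the strongest PBS-only peak was at *Hoxd11*, with a fold of 8.07 and a WT1 match. Its summit lay 2.257 kb downstream of the record start, inside the gene and at a coding transcript's promoter as defined above. In HoxB the strongest PBS-only peak was the CT repeat 9.193 kb upstream of *Hoxb2* (7.56) and in HoxC the *Hoxc13* promoter (7.47). Within the same limit, the strongest ADR-only peak was at the *Hoxc6* promoter, 192 bp upstream of the start, with a fold of 6.13 and the pair of forkhead matches shown above. In the other clusters, and again within 10 kb, it was 5.55 near *Hoxa3*, 3.54 near *Hoxb2* and 2.96 at *Hoxd9*.

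Where both lists had a call, the folds were close. The log2 of the ADR fold over the PBS fold had a median of -0.021 over the 58 HOX sites, with an interval for the median of -0.17 to 0.16 and a range of -1.18 to 1.35. The median over all 26703 sites called in both lists was 0.05, and over those near coding genes -0.03. The ADR fold was the higher at 28 HOX sites, beside 52.6% of all such sites. It was at least 2 times the PBS fold at 4 sites, beside 12.9%, and at most 1/2 of it at 2 sites, beside 6.74%. Differences of 2-fold or more were thus not more frequent at HOX sites than in the whole lists. By cluster the median was 0.05 in HoxA, -0.22 in HoxB, 0.18 in HoxC and 0.03 in HoxD, and the ADR fold was the higher at 2 of the 13 HoxB sites.

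**Figure D4:**
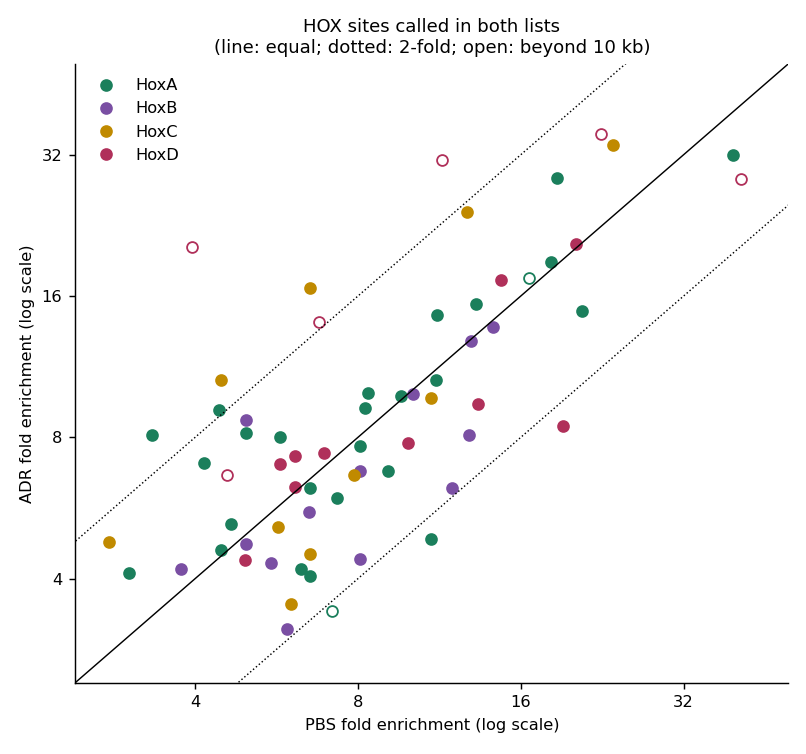
ADR fold against PBS fold, both on log scales, of HOX sites called in both lists, colored by cluster, with the line of equal fold and dotted lines at 2-fold. Filled points lie within 10 kb of a record start and scatter about the line, while 3 of the open HoxD points lie above the upper dotted line.

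Among sites within 10 kb of a record start, the strongest in PBS lay at the *Hoxa2* promoter, 316 bp upstream of the start at chr6:52164790-52165476, with folds of 39.6 in PBS and 31.9 in ADR. The strongest of them in ADR lay in an intron of *Hoxc6*, 1.172 kb downstream of the start at chr15:102998635-102999854, with 23.7 in PBS and 33.5 in ADR. In PBS this interval held 2 peaks and in ADR 1. The intron site 4.062 kb downstream of *Hoxd4* was level at 20.2 and 20.6, and the one 1.195 kb downstream of *Hoxb4* at 14.2 and 13.8. These top sites of the 4 clusters were therefore called in both conditions.

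Other strong HoxA sites were called in both lists, and most lay at promoters. At *Hoxa4* the site 265 bp upstream of the start had folds of 20.7 in PBS and 14.9 in ADR. At *Hoxa5* the site 34 bp into the gene had 13.2 and 15.4, and at *Hoxa7* the one 64 bp upstream had 11.2 and 14.6. The site 2.535 kb upstream of *Hoxa9*, at the start of another coding transcript, had 18.7 and 28.6. An exon site 7.879 kb upstream of *Hoxa2* had 18.2 and 18.9. Of these 5 sites only that of *Hoxa4* had the higher fold in PBS, and none differed by a factor of 2.

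In HoxB the strongest sites in PBS after *Hoxb4* lay at *Hoxb9*, the most posterior member with a peak. The site 1.421 kb upstream of its start had folds of 12.95 in PBS and 12.83 in ADR, and the promoter site 234 bp upstream had 12.8 and 8.08. Between *Hoxb5* and *Hoxb4*, outside coding genes, a site had 10.1 and 9.91. Around it, 3 weaker peaks, with folds of 5.12 to 6.31, were called in PBS only. The promoter of *Hoxb5* had a PBS-only call of 5.14, and that of *Hoxb2*, a hindbrain gene, was called in both at 8.07 and 6.78. The highest ADR to PBS ratio in HoxB was 6.808 kb downstream of the *Hoxb1* start, where the folds were 4.98 and 8.70.

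In HoxC the sites around *Hoxc9* and *Hoxc6* were the only ones with a fold above 10 in either list. The intron site 4.467 kb downstream of *Hoxc9* had 10.9 in PBS and 9.71 in ADR. Between *Hoxc11* and *Hoxc10* a site had 7.87 and 6.65. The ADR-only peaks of HoxC lay at 7 places from *Hoxc12* to *Hoxc6*, with folds of 3.22 to 6.13.

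In HoxD the site 827 bp into *Hoxd9* had 13.4 in PBS and 9.40 in ADR, and that 1.293 kb into *Hoxd8* had 14.7 and 17.3. The common promoter site of *Hoxd3* and *Hoxd4* had 9.88 and 7.79. The stretch from *Hoxd13* to *Hoxd11* held 3 peaks, all called in PBS only.

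Of the 5 sites within 10 kb with the largest log2 difference, 3 were in HoxC. In the *Hoxc6* intron 7.341 kb downstream of the start, the fold was 6.53 in PBS and 16.6 in ADR (log2 difference 1.35). At 3.728 kb upstream of *Hoxc6*, in an intron, it was 4.46 and 10.6 (1.25). At *Hoxc9*, a gene of thoracic identity, it was 12.7 and 24.2 (0.93), where 2 PBS peaks met 1 ADR peak. The other 2 were in HoxA, and the one reported here lay 6.958 kb downstream of *Hoxa4*, with 4.42 and 9.14 (1.05).

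Of the 5 within 10 kb with the smallest difference, 3 were in HoxB. The fold 1.812 kb upstream of *Hoxd10* was 19.2 in PBS and 8.45 in ADR (log2 difference -1.18). At the *Hoxa11* promoter it was 10.9 and 4.87 (-1.16). In the *Hoxb6* intron it was 11.9 and 6.24 (-0.94), at the *Hoxb7* promoter 5.92 and 3.13 (-0.92), and in an exon of *Hoxb2* 8.07 and 4.41 (-0.87). None of the 3 HoxB sites differed by a factor of 2.

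Paralogs 10 and 11 are the members best known from the metanephric kidney, where the group 11 genes together are needed for ureteric bud outgrowth. At *Hoxa11* both lists had a promoter site, and the PBS list had a further peak (4.20) 739 bp upstream. From its record start, *Hoxd11* had 1 ADR peak, 7998 bp away, with a fold of 7.03. With the start of its principal transcripts it had 4 PBS and 3 ADR peaks. At *Hoxc11* the site 774 bp into the gene was called only in PBS (6.53), and one at the start only in ADR (3.22). *Hoxa10* had a weak exon site in both, 4.67 in PBS and 5.23 in ADR. At the *Hoxc10* promoter the PBS list had peaks of 5.23 and 5.49, with no ADR call. The *Hoxd10* promoter had 4.94 and 4.37.

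*Hoxb7*, whose promoter is used to drive transgenes in the ureteric bud, had 5 PBS peaks and 3 ADR peaks. Its promoter site 699 bp upstream was the weakest HOX site called in both lists as seen in ADR. *Hoxc8* had a site 299 bp into the gene in both lists, with 6.01 in PBS and 3.54 in ADR, and an ADR-only peak at its start, with 5.14. All peaks of *Hoxc8*, these included, also lay in the windows of *Hoxc6* or *Hoxc9*.

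The longest stretch of HOX sites missed by windows around record starts lay in HoxD. Between the *Hoxd4* start and *Hoxd1*, across introns and the end of *Hoxd3*, 7 sites lay beyond 10 kb of a record start, and 6 were called in both lists. The ADR fold was the higher at 5 of these 6, and their median log2 difference was 0.85. The fold 16.166 kb downstream of the *Hoxd4* record start was 22.5 in PBS and 35.4 in ADR. Toward *Hoxd1*, the folds were 4.58 and 6.65, then 11.4 and 31.1, then an ADR-only call of 7.21, and then 6.78 and 14.1. At chr2:74748470-74748899, 28 bp beyond the end of the *Hoxd3* record, the fold was 3.94 in PBS and 20.3 in ADR, a log2 difference of 2.36 and the largest over all HOX clusters. The neighboring site at chr2:74749269-74750397 went the other way, with 40.9 in PBS and 28.4 in ADR, and its summit held WT1 and KLF matches. Forkhead and posterior HOX matches also lay within 100 bp of that summit in both lists.
between Hoxd3 and Hoxd1, chr2:74749637-74749737: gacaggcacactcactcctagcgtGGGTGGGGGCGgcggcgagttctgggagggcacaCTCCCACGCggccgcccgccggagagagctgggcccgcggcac
Hoxd4 to Hoxd3 intron, chr2:74728045-74728145: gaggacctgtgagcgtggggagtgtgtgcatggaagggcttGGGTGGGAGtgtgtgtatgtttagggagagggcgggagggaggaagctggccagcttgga
With any annotated start in place of the record start, *Hoxd3* had 13 peaks in each list. This stretch was chosen after its values were seen, and the difference has no replicate check.

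Motif matches within 100 bp of the summits were counted on either strand. The WT1 pattern was GNG, G or T, GGG, A or C, G, and the KLF pattern was GGG, C or T, G, G or T, GG. These share bases at many sites, as in the *Hoxc6* intron window. The forkhead pattern was A or G, C or T, AAA, C or T, A, and it can share bases with the posterior HOX pattern TTTAT, any base, A or G. The PBX-HOX pattern was TGATNNAT, the TEAD pattern A or G, CATTCC, A or T, the AP-1 pattern TGA, C or G, TCA, the LMX1B pattern TTAATTA or TAATTAA, and CTCF was searched by its consensus. A match is a description of the letters and not a binding site.

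WT1, a zinc finger TF required in podocytes, had the most frequent match. It was found at 34.4% of HOX peaks in PBS (25.5 to 44.5%) and 33.8% in ADR (23.9 to 45.4%), beside 28.6% and 29.0% of all peaks. Windows 1 kb to each side held it at 16.7% and 16.2% for HOX peaks, and at 5.94% and 5.49% for all peaks. Forkhead matches, the class that FOXC2 binds, were at 15.1% of HOX peaks in PBS (9.18 to 23.7%) and 18.3% in ADR (11.0 to 28.8%). The whole lists had 19.5% and 25.1%, and the HOX flanks 22.6% and 30.3%. Peaks of like GC content, taken as list peaks between the GC quartiles of the HOX peaks, had 14.2% and 15.9%. So WT1 matches were more frequent at HOX summits than beside them, and forkhead matches were not. The same was true of all peaks, whose flanks held forkhead matches at 27.4% in PBS and 28.5% in ADR.

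AP-1, the stress-responsive FOS and JUN dimer, had a match at 1 HOX peak in each list, or 1.08% in PBS (0.19 to 5.84%) and 1.41% in ADR (0.249 to 7.56%), beside 9.33% and 4.02% of all peaks. LMX1B and CTCF had 0 matches at the 93 PBS and 71 ADR peaks, which allows shares of up to 3.23% and 4.23%, the level of 3 matches, beside 1.52% and 3.52% of all peaks for LMX1B and 1.505% and 0.834% for CTCF. TEAD matches were at 3.23% in PBS (1.10 to 9.06%) and 2.82% in ADR (0.776 to 9.70%), beside 7.73% and 9.25%. KLF matches were at 14.0% in PBS (8.35 to 22.5%) and 14.1% in ADR (7.83 to 24.0%), beside 19.3% and 18.6%. For TEAD and KLF the intervals hold the shares of all peaks.

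PBX-HOX matches, the pattern of HOX proteins paired with PBX, were at 7.53% of HOX peaks in PBS (3.69 to 14.7%) and 9.86% in ADR (4.86 to 19.0%), beside 4.83% and 4.57% of all peaks. HOX flanks had 6.45% and 7.04%. Posterior HOX matches were at 15.1% in PBS (9.18 to 23.7%) and 15.5% in ADR (8.88 to 25.7%), beside 10.8% and 12.9%, and at 17.2% and 21.1% of the flanks. At HOX peaks these patterns were thus about as frequent beside the summits as at them. Over all peaks they were more frequent beside the summits. The flanks of all peaks held PBX-HOX matches at 7.84% in PBS and 8.23% in ADR, and posterior HOX matches at 20.7% and 21.8%. The median GC content around HOX summits was 58.7% in PBS and 58.2% in ADR, beside 55.2% and 54.2% over the lists. Their observed to expected CpG ratio was 0.62 and 0.60, beside 0.34 and 0.31, and 0.64 and 0.66 for peaks near coding genes.

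**Figure D5:**
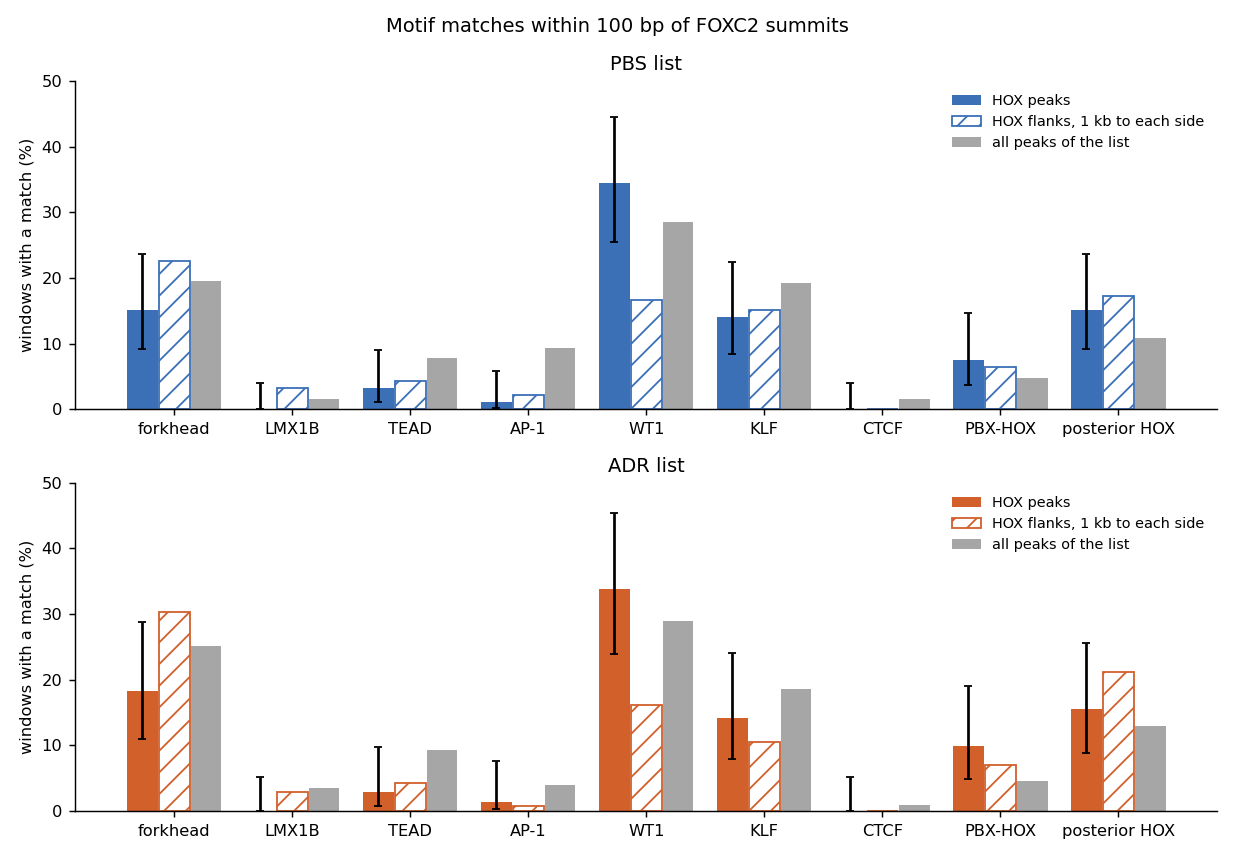
Share of windows within 100 bp of FOXC2 summits that hold each motif, in percent, for HOX peaks (filled bars with 95% Wilson intervals), windows 1 kb to each side of HOX peaks (hatched) and all peaks of the list (gray). WT1 is the most frequent match at HOX peaks in both lists, and LMX1B and CTCF have none.

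Genes that lie inside or next to the clusters were counted by the same windows. Of 12 such genes, 1 had more ADR than PBS peaks, 5 had fewer and 6 had equal numbers. Among coding genes near at least 1 peak, 17.6% had more and 30.3% had fewer. The microRNA genes lie between HOX genes and take their peaks, with 11 and 8 at *Mir196b*, 9 and 6 at *Mir196a-2*, 6 and 3 at *Mir196a-1* and 6 and 2 at *Mir10a*. *Mir10b*, in HoxD, had 2 in each, with a highest fold of 22.5 in PBS and 35.4 in ADR. The noncoding *Hotair* had 1 and 1, and *Hottip* 0 and 1. At the flanks, *Evx2*, an even-skipped homeobox gene beside *Hoxd13*, had 2 and 0.

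The TALE homeodomain cofactors of HOX proteins lie outside the clusters. Of 9 cofactor genes, 5 had more ADR than PBS peaks, 1 had fewer and 3 had equal numbers, with 27 PBS and 34 ADR peaks in all. Among coding genes near at least 1 peak, 17.6% had more and 30.3% had fewer. *Pknox2* had 2 and 5 peaks, with a highest fold of 20.7 and 35.4. *Meis1* had 2 and 4, *Pbx2* 7 and 8, and *Meis2* 8 and 8. Of 15 genes for regulators of HOX transcription, 14 of them near a peak, 3 had more, 5 had fewer and 7 had equal numbers. The same shares of coding genes, 17.6% and 30.3%, stand beside these counts. *Kdm6b*, a histone demethylase that removes the Polycomb mark, had 11 PBS and 7 ADR peaks with highest folds of 47.3 and 45.1. *Ezh1* and *Bmi1*, of the Polycomb complexes, had 4 and 3 each, and *Cdx1*, a homeobox gene that acts on HOX genes, 2 and 4. No difference between these lists and the HOX genes was tested.

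Other gene families were set beside the HOX genes. The 44 forkhead genes had 74 PBS and 76 ADR peaks in windows of 869 kb, or 8.52 and 8.75 per 100 kb. The 17 KLF genes had 49 and 35, or 14.4 and 10.3 per 100 kb. The 67 clustered histone genes, which also lie close together, had 36 and 33, or 7.78 and 7.13 per 100 kb. The ADR-only share was 26.3% for forkhead genes (17.7 to 37.2%), 8.57% for KLF genes (2.96 to 22.4%) and 9.09% for histone genes (3.14 to 23.6%), and each of these intervals overlaps that of the HOX genes.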

How the data were processed

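FOXC2 ChIP-seq was measured in podocytes, with 3 PBS and 3 ADR samples. Per the study's methods, the authors trimmed and aligned each sample's reads (GRCm38), obtained narrow peaks from nf-core/chipseq, and then pooled samples by condition. The caller's version is not given in the sources used here. The 2 deposited lists hold for each peak a position, a whole-number score, a fold (a ratio to the local control at the summit), the −log10 p-value and −log10 q-value, and the summit offset, another deposited number. The score and the p-value were not used.

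Analyses used Python 3.11.15, NumPy 2.4.6, pandas 2.3.3, SciPy 1.17.1 and matplotlib 3.10.9, with GENCODE M21 and the GRCm38 sequence. Peaks were merged, and called shared, when they overlapped by at least 1 bp. The fold of a site is its highest in each list. Motifs were exact matches within 100 bp of a summit. Counting, merging and motif steps were tested on simulated data. The alternatives were other windows, starts, thresholds, overlaps, scales and motif comparisons.

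The members and lists were chosen with earlier results of these data known. Named in full by rule were members with the most or no peaks per cluster, the top, ADR-only and PBS-only sites per cluster, the 5 largest and 5 smallest differences, and *Hoxa10*, *Hoxc10*, *Hoxd10*, *Hoxa11*, *Hoxc11*, *Hoxd11*, *Hoxb7* and *Hoxc8*. Other sites described, including those beyond 10 kb, were chosen after their values were seen. A few named items are left out and not reported here.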

Additional observations from a re-analysis of the deposited data

How the results depend on the processing

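The median log2 fold difference at HOX sites called in both lists (-0.021) changed sign with a 50 kb window (0.0255), any annotated transcript start (0.0257), the start of the principal transcripts (0.0257), and, both chosen after seeing the data, the whole span of each cluster (0.0257) or leaving out HoxB (0.0431). All these lie inside its interval. With the 20000 peaks of smallest q in each list, HOX peaks numbered 35 in PBS and 30 in ADR and 16 members had fewer ADR peaks. Members with more ADR peaks numbered 1 at 50 kb, 7 with principal starts and 9 with a fold of at least 5. Requiring overlap of 50% of both peaks raised the PBS-only share to 44.1%. For motifs, the share at HOX peaks minus that at all peaks moved for LMX1B with a fold of at least 5 (-1.53 points in PBS and -3.70 in ADR) and for CTCF beside peaks of like GC content (-2.07 and -1.25), since the HOX share was 0. Of 132 alternative values, 116 stayed within 1.5 times a count, inside the interval of a share, or inside that of the median with its sign kept. The median in percentiles of the list (-7.23 points) was read by its sign. Motif differences could change sign within their interval and still count among the 116. For forkhead, the difference went from -4.41 to 0.87 points in PBS and from -6.79 to 2.43 in ADR beside peaks of like GC content. Fewer ADR than PBS peaks were found in HOX windows under each alternative for the 2 counts. Leaving out a replicate could not be done with pooled lists. No paired analysis was possible because each condition has 1 list with no values per replicate. The unknown depth limits what the absence of a call in 1 list can show.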

Other observations

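Peaks of like GC content had 53.7 to 62.2% GC in PBS and 53.7 to 63.2% in ADR, the quartiles of the HOX peaks. PBX-HOX matches were at 3.36% of such peaks in PBS and 2.98% in ADR, both under the intervals of the HOX peaks. Posterior HOX matches were at 6.53% and 6.93%, also under them. The HOX shares cover all HOX peaks, including those with less GC. GC content was thus matched only in part, and no excess at HOX peaks follows from these shares. The flanks of the same HOX peaks held these matches about as often.

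Outside the HoxD stretch, 6 sites in the spans of the clusters lay beyond 10 kb of a record start. Within *Hoxa3*, an intron site had folds of 16.6 in PBS and 17.5 in ADR, a neighboring promoter site 7.18 and 3.42, and a further peak of 6.27 was called in PBS only. Upstream of *Hoxb9*, toward *Hoxb13*, peaks of 4.34 and 6.78 were called in PBS only. In *Hoxb3*, a peak of 5.28 was called in ADR only.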
